A study of Mus musculus with 6 samples.

Results

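The genes described here serve osmotic stress and cell volume regulation, and 10 of them were chosen by gene name for those roles. They are the transcription factor Nfat5, the osmolyte transporters Slc5a3, Slc6a6 and Slc6a12, the kinases Sgk1 and Wnk1, and the channel subunits Lrrc8a, Lrrc8b, Lrrc8c and Lrrc8d. All 10 were found among the 78298 genes of the count table, and 7 of the 10 were among the 15522 genes that passed a filter on low counts and were tested.

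RENCA cells are an established line from a mouse renal adenocarcinoma. They were transduced for 48 hours with a lentivirus carrying the mouse Aqp1 coding sequence (oe-AQP1) or with the empty vector (oe-NC), and in both groups 2 μg/mL puromycin was applied for 14 days. Both vectors carried the puromycin resistance cassette, so the groups differed by the insert, and untransduced cells were not analysed here. RNA from 3 samples per group was sequenced paired-end, and the expected counts per gene summed to 19758517.73, 21920898.67 and 20468700.71 in oe-AQP1 replicates 1 to 3 and to 19788719.78, 18385714.02 and 21396273.57 in oe-NC replicates 1 to 3. The labels place the samples in 1 batch and call them biological replicates without saying whether each came from its own transduction, so p-values measure the spread between these samples, which may be technical. No osmotic challenge and no other chemical treatment is named in the labels.

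Cells in hypertonic surroundings lose water and first take up salt through the sodium-coupled members of the cation-chloride cotransporters. Kinases of the WNK family switch these members on through SPAK and OSR1. NFAT5, also called TonEBP, then raises transcription of transporters that bring in compatible osmolytes: SMIT1 from Slc5a3 carries myo-inositol, TauT from Slc6a6 carries taurine and BGT1 from Slc6a12 carries betaine. Swollen cells do the reverse and release chloride and osmolytes through the volume-regulated anion channel, in which LRRC8A is obligatory and pairs with LRRC8B, LRRC8C, LRRC8D or LRRC8E. The renal medulla is the tissue best known for this programme, and Sgk1 is a kinase gene induced by cell volume changes and by corticosteroids.

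Values are given as CPM, counts scaled to a common library size after TMM normalization, as TPM where levels of different genes are compared, and as log2FC, the log2 ratio of oe-AQP1 to oe-NC cells estimated by limma-voom. FDR is the Benjamini-Hochberg adjusted p of that fit over all genes tested, and a gene is said to rise or fall where its FDR was under 0.05. Aqp1 itself had 390.1, 389 and 381 CPM in oe-AQP1 replicates 1 to 3 and 2.09, 1.37 and 2.11 CPM in oe-NC replicates 1 to 3. Every sample therefore matched its label, and these counts do not separate the vector's transcript from that of the cell's own gene.

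The renal epithelial label was checked on 13 markers, of which 10 were tested. Krt8 stood highest per length at 614.5 TPM in oe-AQP1 and 786 TPM in oe-NC cells (299 and 397 CPM), and the kidney transcription factor gene Pax8 had 164 and 172 CPM. Epcam and the thick limb marker Umod had 0 counts in every sample. Markers of the proximal tubule differed among themselves: Slc34a1 had at most 3 counts in any sample, while Lrp2 had 16.0 CPM in oe-AQP1 and 30.4 CPM in oe-NC cells and fell (log2FC = -0.93), and Cubn had 7.485 and 9.29 CPM and did not pass (log2FC = -0.32, FDR = 0.0511, and 0.0115 without oe-NC replicate 1). The summed level of the 13 was 884, 867 and 852 CPM in oe-AQP1 replicates 1 to 3 and 1150, 1060 and 1040 CPM in oe-NC replicates 1 to 3, and 6 of the 10 tested fell. Without oe-NC replicate 1, whose counts stood apart from those of the other libraries, 6 were lower and 1, Pax2, was higher (log2FC = 0.41). Cubn was then among the 6, and Krt19 was not, with a log2FC of -0.80 (FDR = 0.104) against -0.97 (FDR = 0.0403) with all samples. In bulk RNA, fewer cells of a type and less RNA per cell cannot be told apart.

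Of 8 macrophage markers, 3 were tested and 2 of them fell, Csf1r from 9.43 to 3.30 CPM (log2FC = -1.51) and Lyz2 from 17.1 to 11.9 CPM (log2FC = -0.52), while Ptprc, Adgre1, Itgam and C1qa had at most 3 counts in every sample. The macrophage list summed to 48.7, 51.1 and 48.2 CPM in oe-AQP1 and to 55.8, 59.0 and 57.0 CPM in oe-NC replicates 1 to 3, with Cd68 as its highest gene per length at 99.4 and 86.6 TPM (33.8 and 30.6 CPM). Without oe-NC replicate 1 the log2FC was -1.56 for Csf1r and -0.52 for Lyz2. The 7 lymphocyte markers summed to between 0.773 and 1.55 CPM per sample, mostly from Cd79a, and 5 of them, Cd3d, Cd3e, Cd8a, Cd4 and Ncr1, had at most 3 counts in any sample. The 5 endothelial markers summed to between 1.86 and 2.87 CPM, with Pecam1 highest per length at 0.512 TPM in oe-AQP1 and 0.439 TPM in oe-NC cells and with Cdh5, Kdr and Tek at no more than 3 counts per sample. The 7 fibroblast markers summed to 58.5, 56.8 and 58.9 CPM in oe-AQP1 and to 65.9, 54.8 and 51.9 CPM in oe-NC cells. Pdgfrb, with 22.2 and 17.0 TPM, was that list's highest per length and rose (log2FC = 0.34, and 0.41 without oe-NC replicate 1), Col1a1 fell (log2FC = -0.73, and -0.57 without oe-NC replicate 1), and Pdgfra, Dcn and Lum had at most 3 counts in any sample. Mitochondrial genes held 1.71, 1.71 and 1.76% of counts in oe-AQP1 and 2.37, 2.975 and 2.995% in oe-NC replicates 1 to 3. The part of these markers and of the mitochondrial share in the results on volume genes was not tested.

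One library stood apart. Counts of oe-NC replicate 1 differed from those of oe-NC replicates 2 and 3 by a chi-square of 9.82 and 11.4 on average over genes (about 1 would be expected from sampling alone), while the other pairs within a group gave 1.71 to 2.04. The members tested, the pathway list counts and the pathway genes called are therefore given with and without that library. With all 6 samples 5050 genes were called, 2481 higher and 2569 lower in oe-AQP1 cells, and without oe-NC replicate 1 there were 6456, 3125 higher and 3331 lower.

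Among the 7 members tested, Sgk1 rose, and Slc5a3, Slc6a6 and Lrrc8a fell by 15.0 to 17.7%. That made 4 of 7 called, where 32.5% of all genes tested were called. Background shares here and below were not matched for count level, and its part in any difference was not tested. The 1 member that rose stood beside 16.0% of genes called higher, and the 3 that fell beside 16.6% called lower. The median log2FC was -0.061 over the 7 members and 0.002 over all genes tested. The member with the largest log2FC was Sgk1 at 0.86, short of the further limit of a 2-fold change that 5.23% of genes tested passed along with the FDR. CPM did not overlap between groups for 5 of the 7, against 47.3% of all genes tested, and without oe-NC replicate 1 for 6 of the 7, against 60.1%. Without oe-NC replicate 1 the same 4 members were called in the same directions, where 40.1% of genes were. The median log2FC over all 7 members was then -0.048.

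Nfat5 (ENSMUSG00000003847, chromosome 8 of GRCm39, 108020102 to 108106149, forward strand) had 213, 200.5 and 225 CPM in oe-AQP1 replicates 1 to 3 and 185, 209 and 208 CPM in oe-NC replicates 1 to 3. The groups overlapped, and oe-NC replicate 1 was the lowest of the 6 samples. Its log2FC was 0.09 with a 95% interval of -0.04 to 0.22 (limma-voom FDR = 0.29), and 0.03 without oe-NC replicate 1 (FDR = 0.57). On the linear scale the interval ran from 0.97 to 1.16. Among 9755 genes with a mean of at least 10 CPM, the 3 whose log2 CPM followed Nfat5 most closely over the 6 samples were Dusp11 (Pearson r = 0.9925), Ubxn4 (r = 0.987) and Naa35 (r = 0.979). These r values describe 6 samples and were picked as the highest of many.

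The 3 osmolyte transporter genes differed in level and in how the groups compared. Slc6a6, the taurine transporter gene, had 214, 211 and 214 CPM in oe-AQP1 replicates 1 to 3 and 270.1, 245 and 246 CPM in oe-NC replicates 1 to 3. All oe-AQP1 samples lay below all oe-NC samples, and oe-NC replicate 1 was the highest. Slc6a6 fell by 16.2% (log2FC = -0.25, SE 0.04, limma-voom FDR = 0.00156), and its log2FC without oe-NC replicate 1 was -0.21 (FDR = 4.6e-07).

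Slc5a3, the myo-inositol transporter gene, had 81.2, 81.0 and 78.9 CPM in oe-AQP1 replicates 1 to 3 and 87.4, 104 and 103 CPM in oe-NC replicates 1 to 3. The groups did not overlap, and oe-NC replicate 1 was the closest to the oe-AQP1 samples, opposite to its place for Slc6a6. Slc5a3 fell by 17.7% (log2FC = -0.28, SE 0.06, limma-voom FDR = 0.00784), and without oe-NC replicate 1 its log2FC was -0.36 (FDR = 3.97e-08). The gene lies at 91854965 to 91884361 on the forward strand of chromosome 16 of GRCm39 and shares 404 exonic bases, 3.62% of its own, with Mrps6, a mitochondrial ribosomal protein gene, and 165 bases with Gm49711. Its deposited counts were not whole numbers, so reads had been divided among genes and its value is uncertain to that extent. Mrps6 had 58.3, 61.1 and 62.9 CPM in oe-AQP1 and 55.4, 57.1 and 56.6 CPM in oe-NC cells (log2FC = 0.11, FDR = 0.108). With the 3 genes summed, a setting added after the data were seen, the log2FC was -0.13 and did not pass (FDR = 0.079). The sum takes in all counts of Mrps6, whose log2FC had the opposite sign. It is therefore drawn toward 0 however the shared reads were divided, and cannot decide the call of Slc5a3.

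Slc6a12, the betaine transporter gene, had 3, 2 and 3 counts in oe-AQP1 replicates 1 to 3 and 3, 5 and 8 counts in oe-NC replicates 1 to 3. It did not pass the low-count filter and no fold is given. A count of 0 in these libraries allows up to 3 counts, or 0.136 to 0.164 CPM, so the oe-AQP1 values lay near that floor, which covers counting error only.

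Among the kinases, Sgk1 (ENSMUSG00000019970, chromosome 10 of GRCm39, 21758083 to 21875802, forward strand) had 24.6, 21.0 and 24.4 CPM in oe-AQP1 replicates 1 to 3 and 13.0, 12.6 and 12.85 CPM in oe-NC replicates 1 to 3. The groups lay far apart, and the spread was wider among the oe-AQP1 samples (SD 2.03, n = 3) than among the oe-NC samples (SD 0.178, n = 3). Sgk1 rose 1.81-fold with a 95% interval of 1.59 to 2.06 (log2FC = 0.86, SE 0.08, limma-voom FDR = 3.4e-05). Without oe-NC replicate 1 its log2FC was 0.86 (FDR = 2.61e-07). Its counts were whole numbers in every sample.

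Wnk1, the kinase gene upstream of SPAK and OSR1, had 274, 281 and 284 CPM in oe-AQP1 replicates 1 to 3 and 297, 294 and 285.5 CPM in oe-NC replicates 1 to 3. The groups did not overlap, though the highest oe-AQP1 and lowest oe-NC samples were close together. The log2FC of -0.06 had a 95% interval of -0.14 to 0.02 and did not pass (limma-voom FDR = 0.21), and without oe-NC replicate 1 the log2FC was -0.05 (FDR = 0.111).

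Lrrc8a, the gene of the obligatory channel subunit, had 23.1, 23.9 and 23.9 CPM in oe-AQP1 replicates 1 to 3 and 30.5, 28.45 and 25.05 CPM in oe-NC replicates 1 to 3. The groups did not overlap, and the oe-NC samples were spread widely with replicate 1 highest. Lrrc8a fell by 15.0% (log2FC = -0.24, SE 0.08, limma-voom FDR = 0.04), and without oe-NC replicate 1 its log2FC was -0.17 (FDR = 0.0489). The call was lost without oe-AQP1 replicate 1 (FDR = 0.122), replicate 2 (FDR = 0.101) or replicate 3 (FDR = 0.0973), without oe-NC replicate 2 (FDR = 0.0986), with the DESeq2 Wald test (FDR = 0.0521) and with no low-count filter (FDR = 0.0701), and over all alternatives its FDR ran from 0.00728 to 0.122. Its exons overlap Gm28035 on the same strand, by 37.8% of its exonic bases, and 1700084E18Rik on the opposite strand, and its deposited counts were not whole. Gm28035 had at most 26.16 counts in a sample, and summed with it Lrrc8a had a log2FC of -0.23 (FDR = 0.0349), a setting chosen after the data were seen.

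The genes Lrrc8b, Lrrc8c and Lrrc8d lie side by side on the forward strand of chromosome 5 of GRCm39, from 105563557 to 105980302, and their levels differed widely. Lrrc8d had 124, 124 and 125.5 CPM in oe-AQP1 replicates 1 to 3 and 133.5, 120 and 120.5 CPM in oe-NC replicates 1 to 3. The oe-AQP1 values fell inside the range of the oe-NC values, where replicate 1 was highest. The log2FC of Lrrc8d was 0.0017 with a 95% interval of -0.11 to 0.11 (limma-voom FDR = 0.982), and 0.05 without oe-NC replicate 1 (FDR = 0.174). Its neighbours Lrrc8b, with 2, 0 and 1 counts in oe-AQP1 and 1, 0 and 1 in oe-NC replicates 1 to 3, and Lrrc8c, with 2, 0 and 0 and with 1, 0 and 0 counts, stayed at or under the floor of 3 counts and were not tested.

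Lrrc8e, the family's remaining gene and not among the 10, had 58.1, 59.9 and 57.8 CPM in oe-AQP1 replicates 1 to 3 and 59.8, 58.3 and 59.0 CPM in oe-NC replicates 1 to 3. The groups overlapped, and the log2FC of -0.01 had a 95% interval of -0.11 to 0.09 (limma-voom FDR = 0.882), and without oe-NC replicate 1 it was -0.0017 (FDR = 0.98). Over the 5 LRRC8 genes, 3 were tested and 1 was called, lower, which is 33.3% against 32.5% of all genes tested, or against 40.1% without oe-NC replicate 1, where 1 was again called lower.

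**Figure D1:**
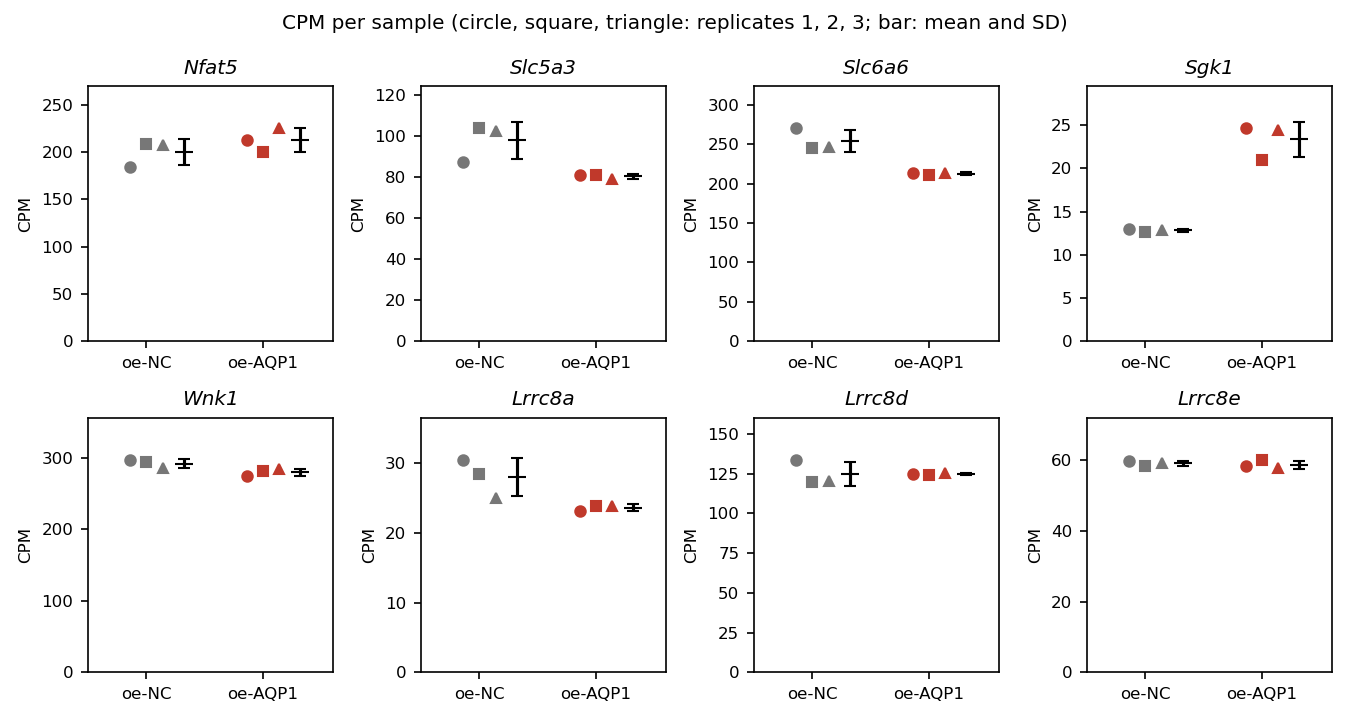
CPM of the 7 members tested and Lrrc8e in each sample, on a linear axis from 0, with circles, squares and triangles for replicates 1, 2 and 3 of oe-NC (grey) and oe-AQP1 (red) and black bars for the mean and SD (n = 3). Sgk1 lies at 21.0 to 24.6 CPM in oe-AQP1 and 12.6 to 13.0 CPM in oe-NC samples, and the groups overlap for Nfat5, Lrrc8d and Lrrc8e.

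An exact two-sided permutation test of log2 CPM, whose smallest possible p is 0.1 with 3 samples against 3, gave p = 0.1 for Slc5a3, Slc6a6, Sgk1, Wnk1 and Lrrc8a, p = 0.4 for Nfat5 and p = 1 for Lrrc8d. The exact test also gave p = 0.1 for Slc6a12, which had at most 8 counts per sample.

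Levels were compared between genes as TPM, computed from the counts and the exonic length of each gene in GENCODE M39. In oe-NC cells Slc6a6 stood highest at 80.85 ± 6.67 TPM (SD, n = 3), followed by Wnk1 at 48.0 ± 2.16 TPM and Nfat5 at 42.0 ± 1.81 TPM. Lrrc8d at 34.25 ± 3.04 TPM and Slc5a3 at 34.0 ± 2.36 TPM did not differ beyond their spread by exonic length. Lrrc8a at 14.4 ± 1.76 TPM and Sgk1 at 8.27 ± 0.311 TPM came next. Slc6a12 at 0.337 ± 0.134 TPM was below these. Lrrc8b at 0.0187 ± 0.0163 TPM and Lrrc8c at 0.00806 ± 0.014 TPM lay under the floor of 3 counts and cannot be ranked against each other. Lrrc8e, at 51.1 ± 1.895 TPM, did not differ from Wnk1 beyond their spread by exonic length. With the mean of oe-NC replicates 2 and 3 alone, Slc5a3 had 35.3 and Lrrc8d 32.5 TPM.

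In oe-AQP1 cells Sgk1 had 15.6 ± 1.34 TPM (SD, n = 3) and stood above Lrrc8a at 12.6 ± 0.306 TPM, the reverse of their order in oe-NC cells by exonic length. Slc6a6 had 70.2 ± 0.567, Wnk1 47.7 ± 1.06, Nfat5 46.3 ± 2.74, Lrrc8d 35.5 ± 0.331 and Slc5a3 29.0 ± 0.38 TPM there. Of these, Wnk1 and Nfat5 did not differ beyond their spread by exonic length.

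Some places in this order depended on the length used. With the longest annotated transcript in place of all exons, Lrrc8d in oe-NC cells had 63.6 TPM and stood above Nfat5 at 43.6 TPM and Lrrc8e at 40.2 TPM. Lrrc8d at 63.6 ± 5.35 and Slc5a3 at 25.65 ± 1.885 TPM (SD, n = 3) then differed beyond their spread. So did Wnk1 at 75.1 ± 3.05 and Lrrc8e at 40.2 ± 1.31 TPM in oe-NC cells. In oe-AQP1 cells Wnk1 at 74.0 ± 1.64 and Nfat5 at 47.6 ± 2.83 TPM also differed beyond their spread. By that length Lrrc8a at 13.1 ± 1.54 TPM and Sgk1 at 12.1 ± 0.401 TPM (SD, n = 3) did not differ beyond their spread in oe-NC cells, while Sgk1 had 22.6 and Lrrc8a 11.35 TPM in oe-AQP1 cells. Lrrc8e exceeded Lrrc8a under both lengths, with a mean ratio of 3.58 by exonic length and 3.09 by longest transcript in oe-NC cells, and of 4.18 and 3.61 in oe-AQP1 cells. Lrrc8d exceeded Lrrc8a by a mean ratio of 2.39 or 4.88 in oe-NC and 2.82 or 5.76 in oe-AQP1 cells. Which of Lrrc8d and Lrrc8e was the higher turned with the length, and mRNA ratios are not subunit ratios of the channel.

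**Figure D2:**
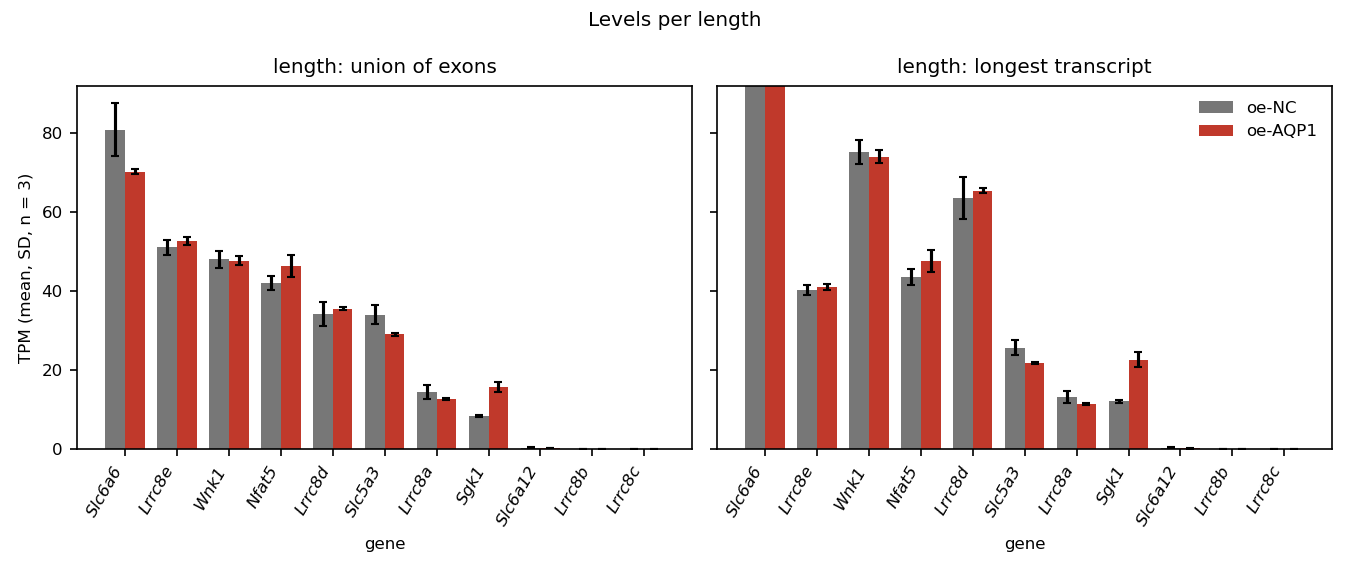
Level per length (TPM, linear axis from 0) of the 10 members and Lrrc8e in oe-NC (grey) and oe-AQP1 cells (red), as mean and SD of 3 samples, by the union of exons (left) and by the longest transcript (right). Slc6a6 is highest in both panels, Lrrc8d moves from 34.25 to 63.6 TPM in oe-NC cells with the longest transcript, and Slc6a12, Lrrc8b and Lrrc8c are near 0.

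Around the members, 106 other genes of their pathways were found in the table and 83 were tested. Of these 83, 8 rose, 29 fell and 46 did not pass, which makes 44.6% called against 32.5% of all genes tested, and their median log2FC was -0.097. The number called higher was 3 without oe-AQP1 replicate 1 or replicate 2, where 23 were lower, and 4 with DESeq2, where 29 were lower. Without oe-NC replicate 1, 43 were called, 8 higher and 35 lower, or 51.8% against 40.1% of all genes, with a median log2FC of -0.084. These 2 background shares, 32.5% with all samples and 40.1% without oe-NC replicate 1, apply to each list that follows. They cover genes of every count level that passed the filter.

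Of 9 tested genes known to be induced through NFAT5 besides the members, 1 rose and 4 fell (55.6% called, against 32.5% of all genes), with a median log2FC of -0.195. Cryab, a small heat shock protein gene, fell from 384 ± 11.3 to 282 ± 8.55 CPM (SD, n = 3; log2FC = -0.44, limma-voom FDR = 1.38e-05). S100a4 (log2FC = -0.60, FDR = 0.000429), Pnpla6, a phospholipase gene of glycerophosphocholine synthesis (log2FC = -0.50, FDR = 0.000923), and the amino acid transporter gene Slc38a2 (log2FC = -0.20, FDR = 0.00215) also fell. Slc38a2 had the highest level per length of the list at 495 TPM in oe-NC cells. The aldose reductase gene Akr1b1, a standard NFAT5 target, had 260.5 and 269 CPM in oe-AQP1 and oe-NC cells and did not pass (FDR = 0.366). Hspa1b rose (log2FC = 0.35, FDR = 0.0298), but Hspa1a is a near-identical copy that can share its reads, and its FDR reached 0.0912 without oe-AQP1 replicate 2, 0.0793 and 0.0878 without oe-AQP1 replicates 1 and 3, and 0.113 and 0.106 without oe-NC replicates 2 and 3. Summed with Hspa1a, a setting chosen after the data were seen, it had a log2FC of 0.32 (FDR = 0.0449), and without oe-NC replicate 1 that of Hspa1b alone was 0.51 (FDR = 1.22e-09). With that library left out, the log2FC was -0.45 for Cryab, -0.67 for S100a4, -0.41 for Pnpla6 and -0.23 for Slc38a2, and 2 of the 9 genes were higher and 4 lower (66.7% against 40.1%, median log2FC = -0.228).

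Genes of osmolyte transport, synthesis and breakdown gave 1 higher and 4 lower of 13 tested (38.5% called, against 32.5% of all genes), with a median log2FC of -0.147. The choline transporter gene Slc44a1 fell from 44.4 ± 3.19 to 30.85 ± 0.314 CPM (SD, n = 3; log2FC = -0.52, limma-voom FDR = 0.000145), and Chdh, whose enzyme makes betaine from choline, fell from 111 ± 6.59 to 84.6 ± 1.47 CPM (log2FC = -0.39, FDR = 0.000233). Slc6a13, a GABA transporter gene that also carries taurine, fell at a lower level, from 8.805 to 6.145 CPM (log2FC = -0.52, FDR = 0.00761). Slc6a8, the creatine transporter gene (log2FC = -0.18, FDR = 0.0345), and Sord, the sorbitol dehydrogenase gene and the 1 that rose (log2FC = 0.24, FDR = 0.0164), were less firm. The FDR of Slc6a8 was 0.0882, 0.0829 and 0.129 without oe-AQP1 replicates 1, 2 and 3 and 0.0707 without oe-NC replicate 2, and that of Sord was 0.0566 and 0.0647 without oe-AQP1 replicates 1 and 2, 0.0904 with DESeq2 and 0.121 with no low-count filter. Isyna1, the inositol synthesis gene with the list's highest level at 179 TPM in oe-NC cells, missed the threshold (log2FC = -0.17, FDR = 0.0509) and passed in 9 of 16 other settings, among them without oe-NC replicate 1, where its log2FC was smaller (-0.10, FDR = 0.0199), and without oe-NC replicate 3 (-0.21, FDR = 0.0327). With oe-NC replicate 1 left out, the log2FC was -0.58 for Slc44a1, -0.35 for Chdh, -0.45 for Slc6a13, -0.12 for Slc6a8 and 0.23 for Sord, and 1 gene of the list was higher and 6 were lower (53.8% against 40.1%, median log2FC = -0.101).

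In the WNK, SPAK and OSR1 pathway with its cotransporters, 4 of 12 tested genes fell, with a median log2FC of -0.145. That is 33.3% against 32.5% of all genes, and without oe-NC replicate 1 there were 5 lower, 41.7% against 40.1%, with a median log2FC of -0.072. The list's share was close to the background both times. Slc12a2, which encodes the sodium-potassium-chloride cotransporter of volume increase, fell from 84.1 ± 4.22 to 67.25 ± 2.62 CPM (SD, n = 3; log2FC = -0.32, limma-voom FDR = 0.00102). Stk39, the SPAK gene, fell from 7.93 ± 0.635 to 5.72 ± 0.345 CPM (log2FC = -0.47, FDR = 0.00795), while Oxsr1, the OSR1 gene, had 88.9 CPM in both groups (FDR = 0.989). Klhl2, an adaptor gene for WNK degradation, fell (log2FC = -0.30, FDR = 0.00422). The potassium-chloride cotransporter gene Slc12a7 fell by 10.3% (FDR = 0.0319), a call lost without any 1 of the oe-AQP1 replicates (FDR of 0.0961, 0.0913 and 0.106 without replicates 1, 2 and 3) or oe-NC replicate 3 (0.0556), with DESeq2 (0.0916), with no low-count filter (0.0622) and with the replicate number as a block (0.0522). By exonic length Slc12a4, which did not pass (FDR = 0.142), had 79.1 ± 9.80 TPM in oe-NC cells (SD, n = 3) and Cul3, a ubiquitin ligase gene, 74.6 ± 3.32 TPM, which did not differ beyond their spread. The mean of oe-NC replicates 2 and 3 was 73.45 TPM for Slc12a4 and 76.5 TPM for Cul3, and by longest transcript Cab39, the gene of a scaffold of SPAK and OSR1, was highest at 109 TPM against 69.3 TPM for Slc12a4. Leaving out oe-NC replicate 1 gave a log2FC of -0.35 for Slc12a2, -0.53 for Stk39, -0.28 for Klhl2, -0.12 for Slc12a7 and -0.05 for Slc12a4.

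The SGK pathway had 2 higher and 4 lower genes of 10 tested (60% called, against 32.5% of all genes) and a median log2FC of -0.086, and without oe-NC replicate 1 there were 2 higher and 5 lower (70.0% against 40.1%, median log2FC = -0.091). Scnn1a, the alpha subunit gene of the epithelial sodium channel, fell from 28.85 ± 1.82 to 15.8 ± 1.12 CPM (SD, n = 3; log2FC = -0.87, limma-voom FDR = 1.51e-05), and the genes of its beta and gamma subunits, Scnn1b and Scnn1g, were not tested. Ndrg1, whose protein is a well known substrate of SGK1, fell from 1027 ± 27.3 to 681 ± 13.7 CPM (log2FC = -0.59, FDR = 4.23e-07) and had the list's highest level at 533 TPM in oe-NC cells. Nedd4l, a ubiquitin ligase gene whose protein SGK1 phosphorylates, rose from 102.5 ± 3.98 to 123 ± 1.61 CPM (log2FC = 0.27, FDR = 0.000934). Mtor fell by 16.3% (FDR = 0.00719). Mapkap1, a gene of the mTORC2 complex that activates SGK1, fell by 12.7% (FDR = 0.0115), with an FDR of 0.0632 without oe-AQP1 replicate 2. Foxo3 rose (log2FC = 0.17, FDR = 0.0359), and this call was lost without oe-AQP1 replicate 1, 2 or 3 (FDR of 0.119, 0.0848 and 0.109), without oe-NC replicate 2 or 3 (0.0846 and 0.125), with DESeq2 (0.0568) and with no low-count filter (0.0996). Leaving out oe-NC replicate 1 gave a log2FC of -0.83 for Scnn1a, -0.57 for Ndrg1, 0.29 for Nedd4l, -0.19 for Mtor, -0.16 for Mapkap1 and 0.23 for Foxo3.

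Sgk1 is also a corticosteroid target, and of 10 receptor and target genes of that response, all tested, 1 rose and 3 fell (40.0% called, against 32.5% of all genes), with a median log2FC of -0.065. Among the target genes, Tsc22d3 (log2FC = -0.10, FDR = 0.176), Fkbp5 (log2FC = -0.02, FDR = 0.745) and Per1 (log2FC = -0.02, FDR = 0.836) did not pass, while Ddit4, Zbtb16 and Klf9 fell. The receptor gene Nr3c1 did not pass (log2FC = -0.03, FDR = 0.692). Ddit4 fell from 239 ± 0.752 to 186 ± 4.005 CPM (SD, n = 3; log2FC = -0.36, limma-voom FDR = 3.14e-05) and had the list's highest level at 341 TPM in oe-NC cells. Zbtb16 fell (log2FC = -0.37, FDR = 0.0113, and 0.0512 without oe-AQP1 replicate 1). Klf9 fell by 11.8% (FDR = 0.0277), with an FDR of 0.0735, 0.0813 and 0.102 without oe-AQP1 replicates 1, 2 and 3, 0.0824 without oe-NC replicate 3, 0.112 with DESeq2, 0.0808 with no low-count filter and 0.0524 with the replicate block. Nr3c2, the mineralocorticoid receptor gene, rose at a low level, from 1.21 to 1.87 CPM (FDR = 0.0379), and its call was lost without each single library in turn, with an FDR of 0.0615 to 0.125, with DESeq2 (0.171), with no low-count filter (0.127) and with the replicate block (0.074). With oe-NC replicate 1 left out, the log2FC was -0.36 for Ddit4, -0.29 for Zbtb16, -0.18 for Klf9 and 0.65 for Nr3c2 (FDR = 0.0712), and 3 genes of the list were called, all lower (30.0% against 40.1%, median log2FC = -0.09).

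The list of NFAT5 regulators holds kinases and other proteins of the hypertonic signal. It was not split by whether a protein raises or lowers NFAT5 activity, so its directions have no single meaning. Of its 12 tested genes, 2 rose and 3 fell (41.7% called, against 32.5% of all genes), with a median log2FC of -0.04. Without oe-NC replicate 1 there were 2 higher and 5 lower (58.3% against 40.1%, median log2FC = -0.05). Atm, a kinase gene, rose 81.3%, from 39.6 ± 0.853 to 71.8 ± 0.525 CPM (SD, n = 3; log2FC = 0.86, limma-voom FDR = 2.5e-07). Ccm2, a scaffold gene of the p38 arm, rose (log2FC = 0.24, FDR = 0.0105), with an FDR of 0.0545 and 0.0524 without oe-AQP1 replicates 1 and 2. Dhx9, a helicase gene, fell (log2FC = -0.36, FDR = 7.4e-05), as did Map3k3 (log2FC = -0.29, FDR = 0.00369) and the importin gene Kpnb1 (log2FC = -0.23, FDR = 0.000162), the last at 464.5 TPM in oe-NC cells the list's highest. The p38 gene Mapk14 did not pass (log2FC = -0.06, FDR = 0.252). Leaving out oe-NC replicate 1 gave a log2FC of 0.85 for Atm, 0.25 for Ccm2, -0.39 for Dhx9, -0.22 for Map3k3 and -0.24 for Kpnb1.

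Other channels, exchangers and mechanosensors of volume gave 1 higher and 7 lower genes of 16 tested, with a median log2FC of -0.146, and the same counts without oe-NC replicate 1 with a median of -0.114, which is 50% called against 32.5% and 40.1% of all genes. Trpv4, a calcium channel gene known for its response to swelling, fell from 92.9 ± 8.99 to 63.5 ± 2.01 CPM (SD, n = 3; log2FC = -0.54, limma-voom FDR = 0.000174). The mechanosensitive channel gene Piezo1 fell from 316 ± 34.5 to 248 ± 0.999 CPM (log2FC = -0.34, FDR = 0.00291) and had the list's highest level by exonic length, 123 TPM in oe-NC cells, where by longest transcript Ano6, a channel and scramblase gene, had 149 and Piezo1 112.5 TPM. Ttyh3 fell (log2FC = -0.68, FDR = 0.000684). The anion exchanger gene Slc4a2 fell by 15.3% (FDR = 0.0145), with an FDR of 0.053, 0.0534 and 0.0571 without oe-AQP1 replicates 1, 2 and 3. Ano6 (log2FC = -0.23, FDR = 0.0007), the chloride transporter gene Clcn3 (log2FC = -0.24, FDR = 0.00272) and the cation channel gene Trpm7 (log2FC = -0.17, FDR = 0.0379) were the other 3 called lower. The call of Trpm7 was lost without oe-AQP1 replicate 1, 2 or 3 (FDR of 0.15, 0.096 and 0.0685), without oe-NC replicate 2 or 3 (0.115 and 0.118) and with library size scaling alone (0.0561). The 1 gene called higher, Ttyh1, had 13, 13 and 16 counts in oe-AQP1 replicates 1 to 3 and 7, 4 and 2 counts in oe-NC replicates 1 to 3. It passed the low-count filter only through the oe-AQP1 samples, where it is high, and was not tested where at least 10 counts were asked of every sample, so its call (log2FC = 1.66, FDR = 0.0152) is no support for a rise in the list. Its log2FC ran from 1.17 without oe-NC replicate 3 (FDR = 0.0632) to 2.06 without oe-NC replicate 1, and its FDR was 0.0554 without oe-AQP1 replicate 3 and 0.0625 with DESeq2. Leaving out oe-NC replicate 1 gave a log2FC of -0.47 for Trpv4, -0.25 for Piezo1, -0.65 for Ttyh3, -0.16 for Slc4a2, -0.23 for Ano6, -0.27 for Clcn3 and -0.22 for Trpm7.

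**Figure D3:**
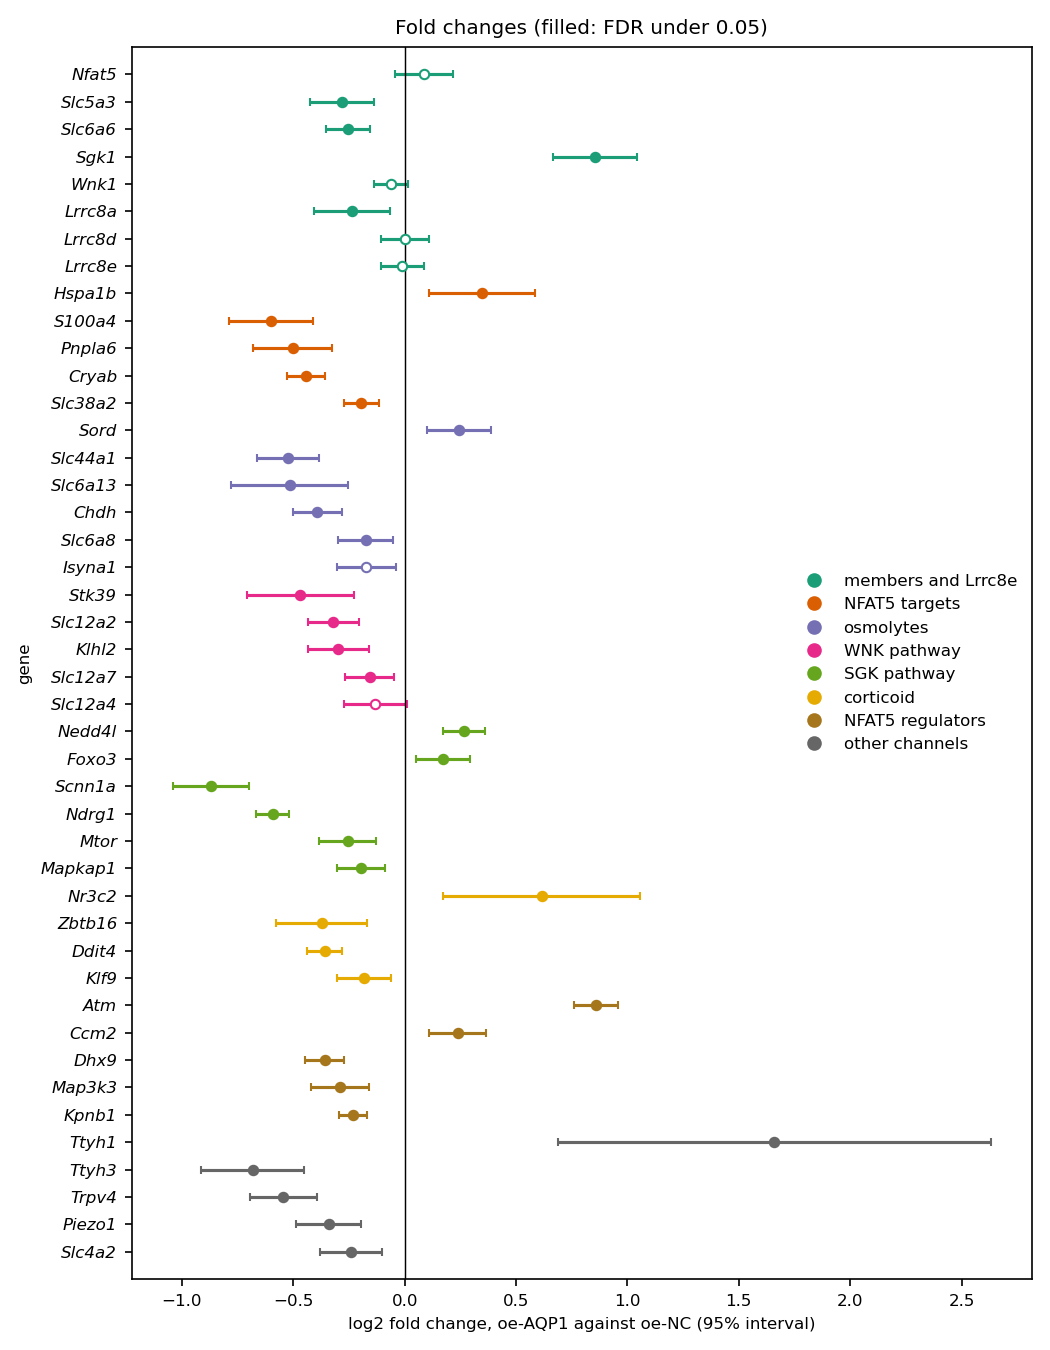
Log2FC between oe-AQP1 and oe-NC cells (horizontal axis, log2 units) with its 95% interval for the 7 members tested, Lrrc8e and the pathway genes chosen by rule, coloured by list, with filled points where the FDR was under 0.05. Sgk1 lies at 0.86 and Atm at 0.86, Scnn1a lies at -0.87, Ttyh1 lies farthest right at 1.66 with the widest interval, 0.69 to 2.63, and most other filled points lie to the left of 0.

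RefSeq promoter windows, which run from 250 bases before each gene start on GRCm38.p6, were at hand for 9 of the 10 members in 19 windows, and Slc6a6 had no entry. They were searched on both strands for the NFAT core TGGAAA, for the tonicity-responsive enhancer consensus TonE, which contains that core, and for the glucocorticoid response element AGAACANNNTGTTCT. TGGAAA was found in 3 of the 19 windows, of 2 members, against 21.4% of all 32851 windows. TonE was found in 1 of the 19, of Slc6a12, against 4.96% of all windows. The glucocorticoid response element was found in 1 of the 19, of Sgk1, against 3 (0.00913%) of the 32851 windows. Sgk1 and Slc6a12 each had several windows for different starts, and the longer motif was in only 1 window of its gene. Which start these cells use was not examined. For those 2 windows, the 250 bases before the start are shown. Sgk1 was already known as a corticosteroid target, so a match in its window is no test of enrichment. Sgk1 is also the member that rose, and whether the element has a part in that was not tested. The counts of Slc6a12 were near the floor. Both windows run on past the start, to base 21993939 for Sgk1 and to base 121342623 for Slc6a12. In this Sgk1 window the response element lies 189 to 175 bases before that window's start. A TGGAAA lies at 163 to 158 bases before the same start, without overlap. The capitals mark the glucocorticoid response element in Sgk1 (chr10:21993640-21993889, forward strand) and TonE in Slc6a12 (chr6:121342324-121342573, forward strand).
Sgk1: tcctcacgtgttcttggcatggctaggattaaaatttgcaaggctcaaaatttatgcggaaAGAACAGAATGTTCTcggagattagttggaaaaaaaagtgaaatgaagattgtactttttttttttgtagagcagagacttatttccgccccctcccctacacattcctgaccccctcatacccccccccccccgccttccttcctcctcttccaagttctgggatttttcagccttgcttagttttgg
Slc6a12: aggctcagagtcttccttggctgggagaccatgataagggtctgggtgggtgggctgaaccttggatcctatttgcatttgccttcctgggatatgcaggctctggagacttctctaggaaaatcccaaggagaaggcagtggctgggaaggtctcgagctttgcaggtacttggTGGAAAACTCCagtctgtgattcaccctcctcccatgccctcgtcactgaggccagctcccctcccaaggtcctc
A match to these letters is a description of the window, and a window without one says only that the letters are not in it.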

How the data were processed

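The authors deposited expected counts per gene for 6 libraries, with no scaling between samples. Their columns of group averages were set aside. The submitters' processing notes name fastp, HISAT2, featureCounts and Subread with the builds GRCm38 and mm10, and the study's methods name GRCm39; 78168 of the 78298 genes were found in GENCODE M39 on GRCm39, from which positions and lengths were taken. Whether counting used strand is not given in the sources used here, so antisense neighbours cannot be separated. Totals per sample, from 18385714.02 to 21920898.67, set the precision.

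Expected counts were rounded, filtered with filterByExpr of edgeR 4.0.16 and fitted over all genes with limma 3.58.1 (voom, TMM scaling, two-sided moderated test) in R 4.3.3. CPM, TPM and fold values were computed here. The comparison was refitted with edgeR's quasi-likelihood test, DESeq2 1.42.0, sample weights, 3 other scalings, other filters, unrounded counts, a replicate block and each sample left out. The fits were tested on simulated counts.

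Named pathway genes were, per list, up to 4 in each direction with the largest absolute log2 fold change among those with FDR under 0.05 and at least 10 counts in the higher group, plus the gene highest in TPM; others were named after their values were seen. The members and lists were chosen with earlier results of these data known. Pathway genes not named in the text enter the list counts and medians only.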

Additional observations from a re-analysis of the deposited data

How the results depend on the processing

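Over 16 other settings, 3 or 4 members were called, and the member lost in each case of 3 was Lrrc8a. No pairing by replicate number was seen, since the deviations of same-numbered samples correlated at 0.01, -0.02 and -0.07. This does not exclude that same-numbered samples were handled together. With the replicate number as a block 4825 genes, 4 members and 37 pathway genes were called, against 5050, 4 and 37 without it. Leaving out 1 library gave 3601 to 6456 genes, 3 or 4 members and 26 to 43 pathway genes. Pathway genes called higher ranged from 3 to 8. Sgk1 kept its call throughout, at a log2FC of 0.82 to 0.93, as did Slc6a6, at -0.28 to -0.21. Slc5a3 kept its call in all but the sum with Mrps6 and Gm49711, which cannot decide it. The log2FC of Lrrc8d, 0.0017, changed sign with edgeR's quasi-likelihood test (-3.08e-05), DESeq2 (-0.000882) and no low-count filter (-0.016), and ran from -0.028 to 0.052 with 1 library left out; that of Lrrc8e was 0.0026 with library size scaling alone. These values lie near 0, and the cause was not tested. Members under the floor of 3 counts could not be compared at this depth. mRNA does not measure channel, transporter or kinase activity, cell volume was not analysed here, and 3 samples per group from transduced and selected cells limit every comparison.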
